A study of Mus musculus with 4 samples.

Results

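The 10 genes described here encode calcium/calmodulin-dependent protein kinases: the 4 CaMKII genes (Camk2a, Camk2b, Camk2d, Camk2g), the upstream kinases Camkk1 and Camkk2, the CaMKI genes Camk1, Camk1d and Camk1g, and Camk4. They were taken by gene symbol from a table of 55487 genes, in which each symbol stood under a single identifier. All 10 were among the 26055 genes tested, which had at least 1 TPM (an abundance in which transcript length and library total have been divided out) in at least 2 libraries. RNA came from sorted nuclei of adult wild-type mice, taken from the brain with the olfactory bulb removed, with 2 libraries of excitatory and 2 of inhibitory neuron nuclei, all labelled as 1 batch. No treatment is given for either group, and the sources used here do not name the strain or the markers of the sort. Whether the replicate libraries were made from different animals is not stated in the labels, so the tests compare these 4 libraries and their spread may be technical.

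When calcium enters a neuron it binds calmodulin, and the complex switches these kinases on. CaMKII subunits assemble into large holoenzymes that phosphorylate themselves and stay active after calcium falls, a property long studied in synaptic plasticity of forebrain excitatory neurons. The CaMKK kinases phosphorylate and so activate CaMKI in the cytoplasm and CaMKIV in the nucleus, and CaMKK2 also activates the energy sensor AMPK. CaMKIV is known for phosphorylating the transcription factor CREB.

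Of the 10 genes, 4 were higher in excitatory nuclei (Camk2a, Camkk1, Camk1d, Camkk2), 1 was higher in inhibitory nuclei (Camk2d) and 5 were not called. Calls are at an adjusted p under 0.05 from limma fitted on all genes tested with Benjamini-Hochberg adjustment, which called 5.43% of genes toward excitatory and 6.62% toward inhibitory nuclei. In either direction it called 12.0%. An unadjusted p under 0.05 was reached by 7256 of the 26055 genes tested, which stands beside such counts below. The log2 fold change, a difference of mean log2(TPM + 1) values taken as excitatory minus inhibitory, had a median of 0.20 over the 10 genes and -0.07 over all genes tested. Both excitatory libraries stood above both inhibitory ones for 6 of the 10 genes, against 23.0% of genes tested, and the reverse held for 1, against 33.3%. The shares over all genes tested include genes near 1 TPM and were not matched to the level of the 10 genes. With a filter at 5 TPM, 2960 of 18993 genes were called. Camk2a and Camkk1 were called under all 9 alternative settings that kept the 4 libraries. When any 1 library was left out, the fit kept 1 residual degree of freedom, and none of the calls among the 10 genes was kept.

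The sequences upstream of 3 of the genes higher in excitatory nuclei are shown because these genes had the same direction of change and the study concerned the zinc finger factor EGR1. RefSeq promoter entries (GRCm38.p6, the assembly of mm10) were found for 7 of the 10 genes, with 8 entries, and not for Camk2a, Camk2g and Camk4. Each sequence is the 250 bases before the start in the promoter entry, 5′ to 3′ on the strand of the gene. That start can differ from the end of the gene span given below, and the windows of Camk2b and Camk2d lie inside those spans. Capitals mark the GC box GGGCGG, a site recognised by Sp-family factors, on either strand (CCGCCC on the other), and the CREB-site core TGACG.
Camkk1 chr11:73018738-73018987, plus strand: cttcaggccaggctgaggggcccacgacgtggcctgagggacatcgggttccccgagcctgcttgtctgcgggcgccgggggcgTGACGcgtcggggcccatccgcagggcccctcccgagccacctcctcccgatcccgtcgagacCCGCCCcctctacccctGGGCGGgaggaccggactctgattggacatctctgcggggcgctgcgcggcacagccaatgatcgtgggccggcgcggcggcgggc
Camkk2 chr5:122779411-122779660, minus strand: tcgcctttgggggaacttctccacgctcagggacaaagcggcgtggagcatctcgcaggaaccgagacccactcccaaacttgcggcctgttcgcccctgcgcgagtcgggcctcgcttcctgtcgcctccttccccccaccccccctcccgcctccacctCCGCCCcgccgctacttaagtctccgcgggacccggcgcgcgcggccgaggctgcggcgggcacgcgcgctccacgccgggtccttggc
Camk1d chr2:5714763-5715012, minus strand: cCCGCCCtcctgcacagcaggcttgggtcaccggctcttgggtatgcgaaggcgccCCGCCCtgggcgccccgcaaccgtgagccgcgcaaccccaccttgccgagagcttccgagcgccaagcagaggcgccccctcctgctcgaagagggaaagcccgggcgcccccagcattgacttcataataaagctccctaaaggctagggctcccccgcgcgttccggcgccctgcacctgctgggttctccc
In these windows Camkk1 held GC boxes that begin 103 and 86 bases before the start, Camkk2 held 1 that begins at 89 bases, and Camk1d held GC boxes at 249 and 194 bases. GC content was 74.4%, 72.4% and 69.2%. A second entry for Camk1d, at a start further into the gene, had 48.4% GC and 1 GC box that begins 39 bases before that start. Both Camk1d entries are counted below. GC boxes were not particular to this direction: Camk2d, called higher in inhibitory nuclei, held 3, and Camk2b, not called, held 3. Over all entries for the family, GGGCGG stood in 6 of 8 windows, against 32.7% of 32851 promoter windows of the same length. GC content was not taken for all windows, so the part of base composition in this difference was not tested. The TGACG core stood in 2 of 8, those of Camkk1 (166 bases before the start) and Camk1 (185 bases), against 17.8% of all windows. The full palindrome TGACGTCA, which contains TGACG, and the EGR sites GCGTGGGCG and GCGGGGGCG, searched on both strands, were in 0 of 8. They were in 1.55%, 0.536% and 2.57% of all windows. GCGGGGGCG can overlap GGGCGG where another G follows.

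Of the 4 CaMKII genes, 1 was called toward excitatory and 1 toward inhibitory nuclei. Camk2a (chromosome 18, 60925618 to 60988152, plus strand, mm10), the alpha subunit of the forebrain holoenzyme, stood at 356 and 432 TPM in the excitatory libraries and at 121 and 157 TPM in the inhibitory ones. Both excitatory values stood above both inhibitory ones, and the gene ranked 99 by mean TPM among genes tested in excitatory nuclei and 840 in inhibitory nuclei. The means were 394 ± 53.7 against 139 ± 25.6 TPM (SD, n = 2 libraries each), a 2.83-fold difference, and the log2 fold change was 1.50 ± 0.16 (SE, limma adjusted p = 0.00493). Camk2d (chromosome 3, 126596302 to 126846326, plus strand), the delta subunit, is also known as the main CaMKII of heart. It stood at 137 and 158 TPM in excitatory libraries and at 208 and 205 TPM in inhibitory ones, with no overlap. The mean was 1.40-fold higher in inhibitory nuclei (log2 fold change -0.49 ± 0.11, limma adjusted p = 0.0387). This call was lost with no filter on low values (adjusted p = 0.0880) or without a variance trend (adjusted p = 0.148).

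Camk2b and Camk2g did not pass the test. Camk2b (chromosome 11, 5969644 to 6066362, minus strand), the beta subunit, which binds filamentous actin, stood at 284 and 333 TPM in excitatory and at 261 and 309 TPM in inhibitory libraries. These ranges overlapped, and the 95% interval of the log2 fold change ran from -0.21 to 0.44. Camk2g (chromosome 14, 20734875 to 20794088, minus strand), the gamma subunit, known as a carrier of calmodulin from the cell surface to the nucleus, stood at 126 and 142 TPM against 107 and 112 TPM. Both excitatory values were higher, with a log2 fold change of 0.29 ± 0.11 (limma adjusted p = 0.142). After median ratio scaling of the libraries Camk2g was called higher in excitatory nuclei (0.36, adjusted p = 0.0456).

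**Figure D1:**
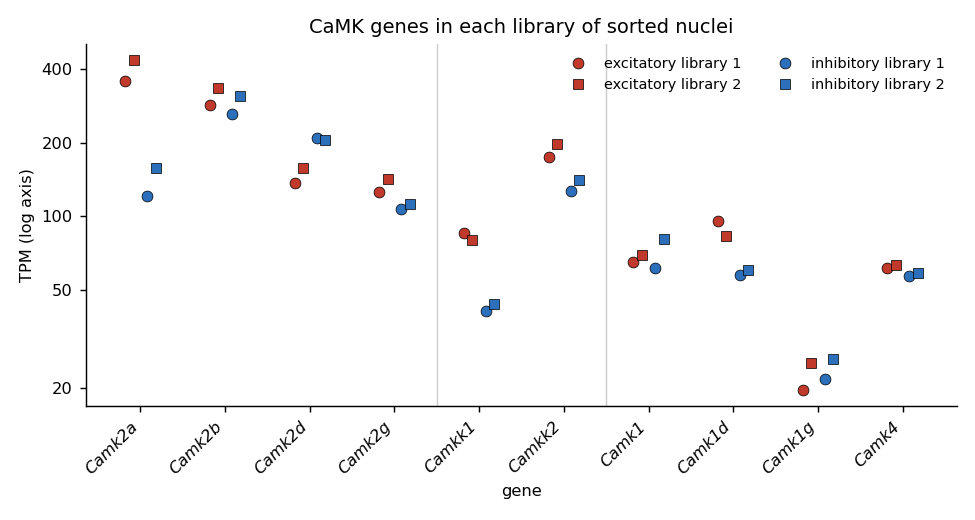
TPM on a log axis (vertical) for each of the 10 genes (horizontal) in each library; red symbols are excitatory and blue symbols inhibitory, circles are replicate 1 and squares replicate 2. Camk2a separates the groups most widely, from 356 and 432 TPM to 121 and 157 TPM, while the values of Camk2b, Camk1 and Camk1g overlap.

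The composition of the CaMKII transcript pool differed between the groups. Summed over the 4 genes, CaMKII stood at 903 and 1065 TPM in excitatory libraries and at 697 and 783 TPM in inhibitory ones. Camk2a made up 39.5% and 40.6% of this sum in excitatory libraries and 17.4% and 20.1% in inhibitory ones. Camk2d made up 15.1% and 14.8% in excitatory libraries and 29.9% and 26.2% in inhibitory ones. The share of Camk2b was 31.4% and 31.3% against 37.4% and 39.5%, and that of Camk2g was 14.0% and 13.3% against 15.3% and 14.3%. Thus none of these shares overlapped between the groups. That of Camk2a was higher in excitatory libraries, and those of Camk2b, Camk2d and Camk2g were higher in inhibitory ones. Shares of a sum are tied to each other, since a larger share of Camk2a leaves less for the rest. The mean share of Camk2a differed by 21.3 percentage points (exact two-sided permutation test p = 0.333, the smallest that 2 against 2 libraries can give).

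Within a library the order of the subunits also differed. In both excitatory libraries Camk2a was above Camk2b, with a ratio of 1.26 and 1.30, and in both inhibitory libraries it was below, with a ratio of 0.464 and 0.509. Camk2a exceeded Camk2d by 2.61 and 2.74 times in excitatory libraries. In inhibitory libraries Camk2d exceeded Camk2a by 1.72 and 1.30 times. TPM gives a level per transcript length in RNA of nuclei, and neither protein nor splice forms were measured here.

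**Figure D2:**
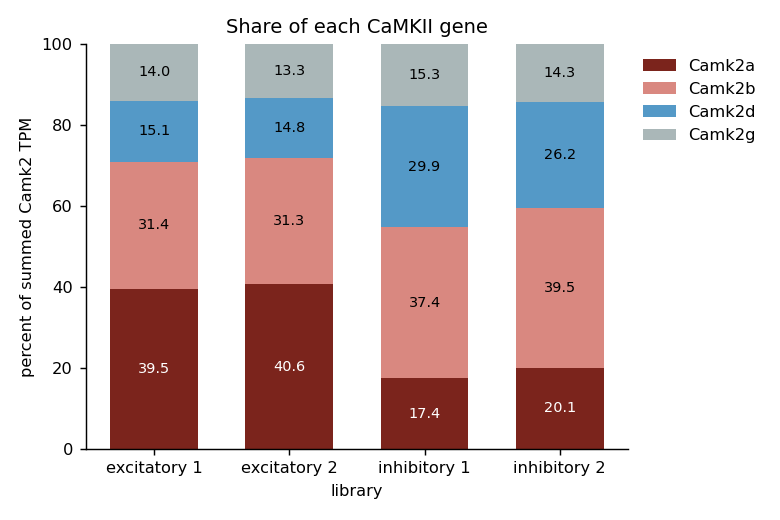
Stacked bars give each CaMKII gene as a percent of the summed TPM of the 4 genes (vertical axis, from 0) in each library (horizontal axis). The Camk2a segment is 39.5% and 40.6% in the excitatory libraries and 17.4% and 20.1% in the inhibitory ones, and the Camk2d segment is the larger of the pair in the inhibitory libraries.

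Annotated genes that lie inside the introns of Camk2a and Camk2d were also read, and their values may not be independent of the host gene or of each other. Whether reads of unspliced host transcripts were counted for these genes is not stated by the sources used here. Mir6982 and Mir7220, a pair of microRNA genes on the strand of Camk2a, share 0 bases with its exons. Mir6982 stood at 218 and 290 TPM in excitatory and at 82.4 and 101 TPM in inhibitory libraries (log2 fold change 1.45 ± 0.17, limma adjusted p = 0.00603). Mir7220 stood at 102 and 175 TPM against 37.8 and 32.4 TPM (1.90 ± 0.25, adjusted p = 0.00873). Both were higher in excitatory nuclei, as was Camk2a itself at 1.50. These are values for very short genes, in which few reads make a large TPM.

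Camk2d contains 8 annotated genes with no exon bases shared, 7 of them transcripts still to be verified experimentally on its own strand and 1 an antisense gene. Both inhibitory libraries stood above both excitatory ones for 7 of the 8, those on the Camk2d strand, against 33.3% of genes tested. The log2 fold changes of the 8 ran from -0.75 (Gm43005) to -0.32 (Gm43011), beside -0.49 for Camk2d. Limma called 0 of the 8, and 2 had an unadjusted p under 0.05, against 7256 of the 26055 genes tested. The most abundant of them, Gm43010, stood at 17.1 and 18.7 TPM in excitatory and at 24.9 and 23.2 TPM in inhibitory libraries.

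**Figure D3:**
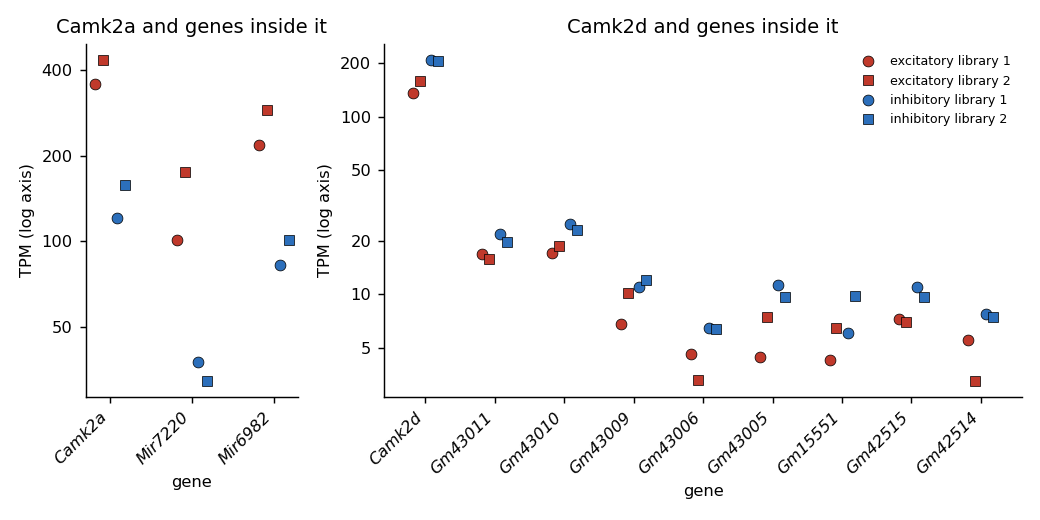
TPM on a log axis (vertical) for Camk2a (left) and Camk2d (right) and for the genes annotated inside them (horizontal), in each library; red is excitatory, blue inhibitory, circles replicate 1 and squares replicate 2. The microRNA genes inside Camk2a lie higher in excitatory libraries, and 7 of 8 genes inside Camk2d have both inhibitory values above both excitatory ones.

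The upstream kinases were both called higher in excitatory nuclei. Camkk1 (chromosome 11, 73019008 to 73042073, plus strand), the CaMKK alpha gene, stood at 85.2 and 80.0 TPM in excitatory and at 41.1 and 43.9 TPM in inhibitory libraries. The groups were well apart, with means of 82.6 ± 3.68 against 42.5 ± 1.99 TPM (n = 2 each), a 1.94-fold difference and a log2 fold change of 0.94 ± 0.11 (limma adjusted p = 0.00584). Camkk2 (chromosome 5, 122731170 to 122779409, minus strand), the CaMKK beta gene, stood at 174 and 198 TPM against 127 and 141 TPM, again without overlap. Its means differed 1.39-fold and its log2 fold change was 0.47 ± 0.11 (limma adjusted p = 0.0488). The Camkk2 call was lost under 5 of 9 alternatives, with adjusted p from 0.0507 (pseudocount 0.5) to 0.167 (no trend in the variance prior). Camkk2 was the more abundant of the pair in every library, and Camkk1 amounted to 0.489 and 0.404 of its level in excitatory and 0.324 and 0.312 in inhibitory libraries.

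Among the 4 genes of the family for kinases that CaMKK activates, Camk1d was called. Camk1d (chromosome 2, 5293457 to 5714515, minus strand), the CaMKI delta gene and the longest of the family at 421 kb, stood at 95.7 and 83.4 TPM in excitatory and at 58.0 and 60.6 TPM in inhibitory libraries. The groups did not overlap, the means differed 1.51-fold, and the log2 fold change was 0.58 ± 0.11 (limma adjusted p = 0.0281). The call was lost with no filter (adjusted p = 0.0662) or without a variance trend (adjusted p = 0.105).

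Camk1 (chromosome 6, 113334124 to 113343984, minus strand), the CaMKI alpha gene, stood at 65.3 and 69.6 TPM in excitatory and at 61.8 and 80.6 TPM in inhibitory libraries. The inhibitory values spanned the excitatory ones, and the 95% interval of the log2 fold change was -0.43 to 0.30. It shares 3.88% of its exon bases with Ogg1 on the other strand, and the sources used here do not state if counting used strand. Camk1g (chromosome 1, 193346346 to 193370298, minus strand), the CaMKI gamma gene, a membrane-anchored form, was the lowest of the family, at 19.6 and 25.3 TPM against 21.7 and 26.3 TPM. Its values interleaved, and the interval was -0.55 to 0.36.

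Camk4 (chromosome 18, 32934931 to 33191228, plus strand), the nuclear kinase, stood at 61.4 and 63.6 TPM in excitatory and at 57.4 and 58.9 TPM in inhibitory libraries. Both excitatory values were above both inhibitory ones, by a narrow margin: the log2 fold change was 0.10 ± 0.10 (limma adjusted p = 0.583, 95% interval -0.15 to 0.35). Camk4 shares 2.21% of its exon bases with the antisense gene 2310026I22Rik, which stood at 2.09 ± 0.26 against 1.37 ± 0.28 TPM.

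**Figure D4:**
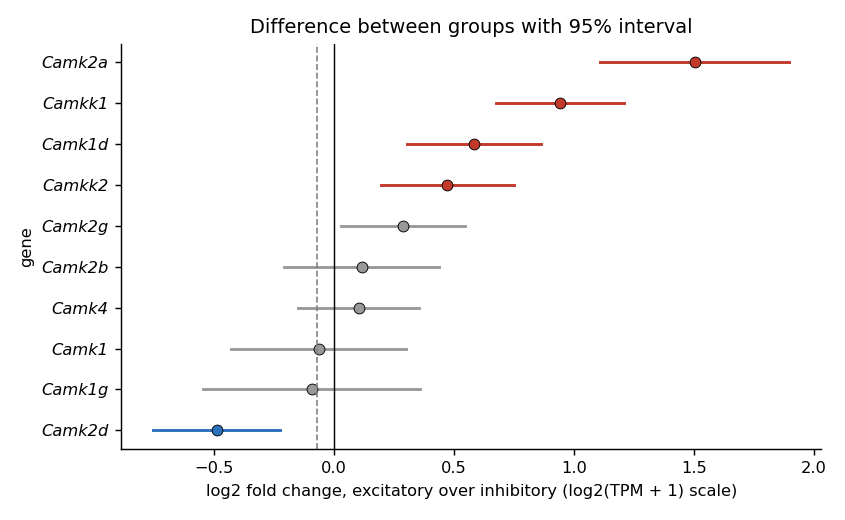
Points give the log2 fold change of excitatory over inhibitory nuclei (horizontal axis, log2(TPM + 1) scale) for each gene (vertical axis) and bars its unadjusted 95% interval from limma; red genes were called higher in excitatory, blue higher in inhibitory and grey not called, and the dashed line is the median of all genes tested (-0.07). Camk2a lies at 1.50 and Camk2d at -0.49, and the intervals of Camk2b, Camk4, Camk1 and Camk1g include 0.

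By mean TPM the order in excitatory nuclei was Camk2a, Camk2b, Camkk2, Camk2d, Camk2g, Camk1d, Camkk1, Camk1, Camk4 and Camk1g. In that order, the library values of Camk2d overlapped those of Camk2g, and those of Camk1d overlapped those of Camkk1. In inhibitory nuclei the order was Camk2b, Camk2d, Camk2a, Camkk2, Camk2g, Camk1, Camk1d, Camk4, Camkk1 and Camk1g, with overlap between Camk2a and Camkk2 and between Camk1d and Camk4. Camkk1 thus stood above Camk1 and Camk4 in excitatory nuclei and below both in inhibitory nuclei.

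The genes with the most similar pattern were taken by the smallest distance between values of log2(TPM + 1), centred for each gene, over the 4 libraries, among 10429 other named genes of at least 10 TPM on average. For Camk2a these were Synpo, which encodes the actin-associated protein synaptopodin of dendritic spines (distance 0.0120), Catsperz (0.0252) and the potassium channel gene Kcnj6 (0.05001). Those nearest to Camk2d were Gsr, which encodes glutathione reductase (0.0130), the ubiquitin ligase gene Ube3a (0.0239) and Rspry1 (0.0254). Camkk1 lay nearest to Rilpl1 (0.0453), the phosphatase regulator gene Arpp19 (0.0582) and the heparan sulfate sulfotransferase gene Hs3st4 (0.0745). Such likeness over 4 libraries is a description.

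Genes for proteins that act with these kinases were read from a list of 58 partner genes written from general knowledge, all of which were tested. The list was chosen with earlier results of these data known, so its counts and median are not independent of the data. Limma called 9 of the 58 toward excitatory and 9 toward inhibitory nuclei and did not call 40. Over all genes tested the shares called were 5.43% and 6.62%, and these also stand beside the counts by gene group below. The median log2 fold change was 0.11 over the partner genes and -0.07 over all genes tested. Of the 18 calls, 8 were kept under all 9 alternatives that used the 4 libraries: Nrgn, Pcp4l1, Camk2n1, Rcan3, Grin2a, Actn2, Kalrn and Mef2c. The endogenous CaMKII inhibitor genes split. Camk2n1 stood at 82.5 and 88.2 TPM in excitatory and at 41.2 and 41.7 TPM in inhibitory libraries (log2 fold change 1.02 ± 0.11, limma adjusted p = 0.00462). Camk2n2 stood at 9.77 and 8.65 TPM against 21.6 and 15.8 TPM (-0.94 ± 0.22, adjusted p = 0.0439), a call lost under 4 alternatives. Both genes showed no overlap between groups. Set against the summed CaMKII genes on the TPM scale, Camk2n1 amounted to 9.14% and 8.28% in excitatory and 5.91% and 5.32% in inhibitory libraries. Camk2n2 amounted to 1.08% and 0.812% in excitatory and 3.10% and 2.02% in inhibitory libraries, in the opposite direction.

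Genes of 4 proteins that bind calmodulin gave 1 call toward excitatory and 2 toward inhibitory nuclei. Nrgn, the gene of neurogranin, which holds calmodulin in dendrites, was higher in excitatory nuclei at 120 and 121 TPM against 63.9 and 51.3 TPM (1.06 ± 0.13, adjusted p = 0.00703). Pcp4l1, a gene related to the calmodulin regulator Pcp4, was higher in inhibitory nuclei at 7.83 and 5.78 TPM against 19.5 and 25.8 TPM (-1.60 ± 0.24, adjusted p = 0.0119). Pcp4 was called in the same direction (-0.72), but 23.7% of its exon bases are shared with Igsf5 on the same strand, and the call was lost under 6 of 9 alternatives.

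Of 9 related kinases and pseudokinases, 1 was called toward excitatory and 2 toward inhibitory nuclei. Pnck, the CaMKI beta gene, stood at 49.7 and 62.0 TPM in excitatory and at 90.2 and 101 TPM in inhibitory libraries, with no overlap (-0.77 ± 0.14, limma adjusted p = 0.0232). Its direction was the opposite of that of Camk1d. The doublecortin-like kinase genes Dclk1 (0.70, adjusted p = 0.0136) and Dclk2 (-0.62, adjusted p = 0.0308) were called in opposite directions. The calls of Pnck, Dclk1 and Dclk2 were each lost with no filter and with no trend in the variance prior. Not called were the death-associated kinase gene Dapk1, at 76.7 and 83.0 TPM against 57.5 and 60.4 TPM (adjusted p = 0.0526), and Eef2k, the gene of the kinase of elongation factor eEF2, at 37.0 and 41.1 TPM against 28.5 and 29.8 TPM (adjusted p = 0.0967). Camkv, a kinase-like gene without known activity, was not called at 221 and 254 TPM against 165 and 196 TPM (adjusted p = 0.108). Dapk1 stayed uncalled under only 5 of 9 alternatives, Camkv under 7 and Eef2k under 8.

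Among 11 phosphatase genes and regulators that oppose these kinases, 1 was called toward excitatory and 3 toward inhibitory nuclei. Ppm1e, a phosphatase that removes the activating phosphate of CaMKs, stood at 127 and 138 TPM against 74.9 and 79.1 TPM (0.78 ± 0.10, limma adjusted p = 0.00844). The calcineurin catalytic gene Ppp3ca, at 382 and 406 TPM against 319 and 306 TPM, was not called (adjusted p = 0.0826). It stayed uncalled under 7 of 9 alternatives. Rcan3, a regulator of the calcium-activated phosphatase calcineurin, was 4.26-fold higher in inhibitory nuclei, at 6.96 and 7.19 TPM against 30.2 and 30.1 TPM. Rcan2 (-0.80, adjusted p = 0.0170), another calcineurin regulator, and the phosphatase 1 catalytic subunit gene Ppp1cc (-0.62, adjusted p = 0.0156) were the remaining calls. With no trend in the variance prior the calls of Ppm1e, Rcan2 and Ppp1cc were lost, that of Rcan2 also with no filter.

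Synaptic substrates and anchors of CaMKII had 3 of 13 genes called toward excitatory and 1 toward inhibitory nuclei, with a median log2 fold change of 0.27. Grin2b, the NMDA receptor subunit gene whose product anchors active CaMKII, stood at 162 and 175 TPM against 104 and 105 TPM (0.68 ± 0.10, limma adjusted p = 0.0103; lost with no trend in the variance prior). Grin2a, the gene of a related subunit, was higher as well (1.25 ± 0.10, adjusted p = 0.00276). Kalrn, a guanine nucleotide exchange factor gene and CaMKII substrate, stood at 770 and 891 TPM against 315 and 385 TPM. Actn2, the gene of the actin crosslinker alpha-actinin, which binds CaMKII in spines, went the other way, at 11.2 and 12.6 TPM against 29.1 and 34.3 TPM (-1.34 ± 0.17, adjusted p = 0.00701). Syn1, the gene of the vesicle protein synapsin, was not called (0.41, adjusted p = 0.0527), but stayed uncalled under only 5 of 9 alternatives.

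Among nuclear targets, limma called 2 of 13 toward excitatory and 0 toward inhibitory nuclei, where 1 had an unadjusted p under 0.05. Mef2c, an activity-regulated transcription factor gene, stood at 397 and 452 TPM in excitatory and at 165 and 151 TPM in inhibitory libraries (1.41 ± 0.11, limma adjusted p = 0.00276). The CREB coactivator gene Crtc1 was called at 0.51 (adjusted p = 0.0486), a call lost under 5 of 9 alternatives. Srf, the gene of serum response factor, stood at 15.97 and 22.4 TPM against 11.2 and 12.2 TPM (adjusted p = 0.108), and the histone deacetylase gene Hdac5 at 51.2 and 64.2 TPM against 69.1 and 84.6 TPM (adjusted p = 0.161). Neither was called. Creb1 itself, which was chosen with its values known, stood at 56.7 and 71.4 TPM against 63.7 and 59.9 TPM, with overlap. Of the other CaMKK targets, AMPK catalytic genes Prkaa1 and Prkaa2 and the kinase gene Akt1, limma called 0 of 3. An unadjusted p under 0.05 was found for 2, Prkaa1 (-0.44) and Akt1 (-0.41), against 7256 of the 26055 genes tested. Prkaa1 stood at 11.9 and 13.7 TPM against 17.9 and 17.5 TPM.

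**Figure D5:**
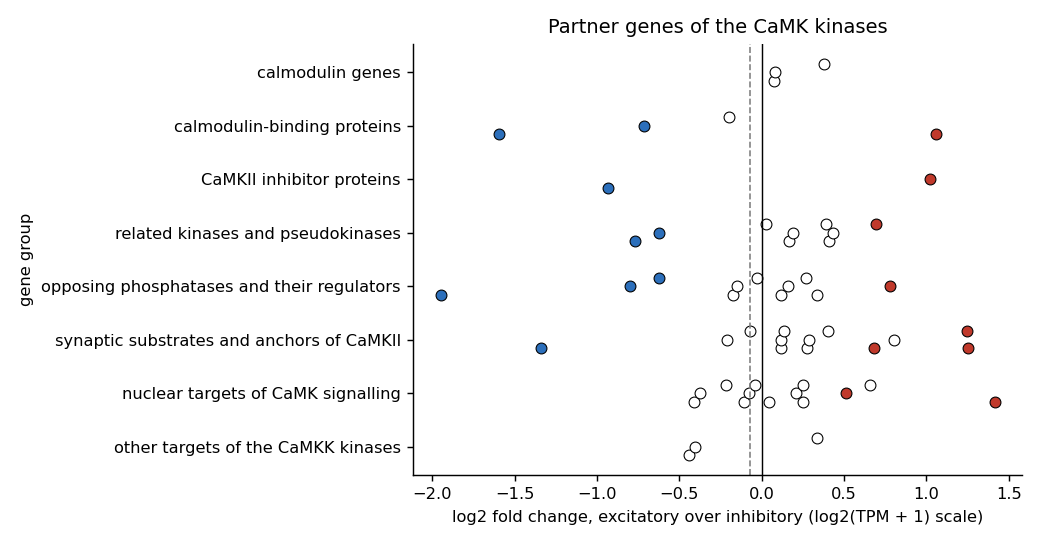
Each point is a partner gene placed by its log2 fold change, excitatory minus inhibitory (horizontal axis, log2(TPM + 1) scale), in rows by gene group (vertical axis; offsets within a row only separate points); red was called higher in excitatory, blue higher in inhibitory and white not called, and the dashed line is the median of all genes tested (-0.07). Calls lie on both sides of 0, 9 each, from Rcan3 at -1.95 to Mef2c at 1.41.

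Most markers of excitatory and inhibitory identity moved with their groups. All 6 inhibitory identity genes were called higher in inhibitory nuclei, and 5 of 6 excitatory identity genes higher in excitatory nuclei. The other, Slc17a6, was called toward inhibitory, at 22.4 and 20.3 TPM in excitatory and at 88.0 and 78.4 TPM in inhibitory libraries. Markers of striatal projection neurons (7 of 7), Purkinje cells (5 of 5), cerebellar granule cells (6 of 6) and thalamic neurons (4 of 5) were also higher in inhibitory nuclei. A higher level in inhibitory nuclei was thus not limited to the inhibitory identity genes, and it included Slc17a6 of the excitatory list. Whether excitatory neurons contributed RNA to the inhibitory libraries was not tested. Summed over its list, striatal TPM was 195 to 213 in excitatory and 949 to 980 in inhibitory libraries, and granule cell TPM was 108 to 117 against 232 to 252. The part of this regional makeup in the results for CaMK genes was not tested. In bulk RNA, fewer cells with a transcript and less RNA in each cell cannot be told apart. Of 18 glial markers, limma called 0, with 2 at an unadjusted p under 0.05, both toward excitatory (Slc1a3 0.49 and Cspg4 0.90). Over all genes tested, 7256 of 26055 had such a p. Median log2 fold changes were 0.34 for astrocyte, 0.27 for oligodendrocyte, 0.67 for oligodendrocyte precursor and -0.26 for microglia markers. Oligodendrocyte markers summed to 316 to 387 TPM in excitatory and 240 to 330 TPM in inhibitory libraries. All 4 endothelial markers were under 1 TPM in each library.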

How the data were processed

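Nuclear RNA was depleted of ribosomal RNA and sequenced from strand-specific libraries, per the labels' protocols. The authors deposited 1 table of TPM values, which keep no depth, so the depth per library is unknown. Columns were matched to samples by the column names in the labels, and each summed to between 999833 and 999891. The submitters' processing notes name fastp 0.23.4, HISAT2 2.2.1, Bowtie2 2.3.5, StringTie 2.2.1 and mm10, with no roles, and the sources used here do not state the use of strand in counting.

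Log2(TPM + 1) values were compared by limma 3.58.1 in R 4.3.3 (variance trend, 2 residual and 4.04 prior degrees of freedom, two-sided, no block) for the 26055 genes that reached 1 TPM in 2 or more libraries. The code was tested on simulated data. The 9 alternatives were pseudocounts of 0.1 and 0.5, no filter, a filter at 5 TPM, median ratio scaling, quantile normalization, no variance trend, a robust variance prior and the replicate number as a block; each library was also left out in turn. The marker Dlx6os1, listed under 2 identifiers, was read at the first. Log2 fold changes are differences of mean log2 values and folds are ratios of mean TPM. Gene models and overlaps came from GENCODE M21 (GRCm38), which held all 10 genes, and figures from matplotlib 3.10.9. The genes and lists were chosen with earlier results of these data known. All 10 genes are named, with partner genes that were called and up to 4 others of each group in order of p; some partner genes are not reported here.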

Additional observations from a re-analysis of the deposited data

How the results depend on the processing

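The 5 calls in the family became 2 toward excitatory and 0 toward inhibitory nuclei with no filter on low values, and likewise 2 and 0 with no trend in the variance prior. Without the filter 37740 genes were tested in place of 26055, and the variance trend was fitted on that larger set. The cause of the lost calls was not tested for either setting. Partner genes higher in inhibitory nuclei fell from 9 to 4 with no filter and to 3 with no variance trend, and those higher in excitatory nuclei from 9 to 5 with no variance trend. Partner genes higher in excitatory nuclei rose to 15 with median ratio scaling, which moved the median log2 fold change of all genes from -0.07 to -0.01. With 1 library left out, each of the 4 counts of calls was 0 to 0, in fits with fewer libraries, and the lone library of a group was assumed to vary like the other group. In these fits the smallest adjusted p over all genes was 0.0545 to 0.0664, with 5311 to 5812 genes at an unadjusted p under 0.05. With 1 library left out, Camk1 ranged from -0.25 to 0.12, Camk1g from -0.27 to 0.081 and Camk2b from -0.0075 to 0.24 on the log2 scale. The 5 called genes of the family kept their direction in every fit run. Reversals were all in uncalled genes: Camk1 with median ratio scaling (0.0010) and without inhibitory replicate 2, Camk1g without excitatory replicate 1 or inhibitory replicate 2 (0.038), and Camk2b without excitatory replicate 2 (-0.00072) or inhibitory replicate 1. The difference in the Camk2a share ranged from 19.96 to 22.7 percentage points with 1 library left out and was 23.4 with Camk2a and Camk2b only.

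With the replicate number as a block, 16 partner genes were higher in excitatory nuclei in place of 9. The labels do not say what same-numbered libraries share, and across 26055 genes their deviations from the group means correlated at r = 0.0957 over 2 pairs. The block changed no call among the 10 genes. Depth is unknown from TPM, so what it limits could not be assessed.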
